A study of Mus musculus with 7 samples.

Results

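The imprinted genes of the stem cell network are a named set of imprinted genes, several of them growth or quiescence regulators. They were examined here in mouse blood cells with and without a chromosomal deletion. The members were picked by name from the deposited gene table: Igf2r, Cdkn1c, Ndn, Peg3, Grb10, Gnas, Impact, the noncoding RNAs Meg3 and Peg13, and H19. Of these 10 names, 9 matched a gene in the table of 16760 genes; H19 was not analysed here. RNA sequencing covered CD150-negative cells of C57/B6 mice, labelled as haematopoietic stem cells (HSC): 4 libraries were wild type (WT) and 3 (5G2del) lacked a segment in chromosome 5 band 5G2. No member lies on chromosome 5. Loss of human band 7q22, the counterpart of 5G2, recurs in myeloid malignancies, and the comparison asks what the deletion does to expression. Age, sex, zygosity, the parent that passed on the deletion and whether each library is a separate animal were not stated in the labels, so p-values measure only the spread between libraries, some of which may be technical.

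An imprinted gene is transcribed mainly from the allele of 1 parent, because the other allele carries DNA methylation or silent chromatin laid down in the germ line. Genes expressed from the maternal allele, such as Igf2r, Cdkn1c, Grb10, Meg3 and H19, mostly restrain growth, and several of those expressed from the paternal allele, such as Igf2, Dlk1 and Peg3, promote it. In blood, Cdkn1c, the Meg3 locus and the H19-Igf2 locus are known for keeping long-term stem cells quiescent. The values used here sum both alleles, so they show neither which allele was read nor whether imprinting was lost.

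DNA methylation is laid on CpG dinucleotides, and 4 members whose promoters differ in CpG number are shown. Where the imprinting marks of these genes lie was not examined, so the capitals do not mark imprinted sites. Each sequence is from RefSeq on GRCm38.p6 (mm10), runs 5′ to 3′ on the gene's strand from 250 bases before the annotated start to 10 bases after it, and has every CpG in capitals.
Igf2r promoter, chr17:12769697-12769956, minus strand: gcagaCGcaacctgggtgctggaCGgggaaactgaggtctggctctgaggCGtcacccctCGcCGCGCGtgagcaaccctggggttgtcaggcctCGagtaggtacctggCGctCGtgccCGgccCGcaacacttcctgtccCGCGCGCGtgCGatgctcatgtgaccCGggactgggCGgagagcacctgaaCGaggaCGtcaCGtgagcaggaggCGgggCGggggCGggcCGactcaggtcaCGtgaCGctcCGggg
Grb10 promoter, chr11:12037411-12037670, minus strand: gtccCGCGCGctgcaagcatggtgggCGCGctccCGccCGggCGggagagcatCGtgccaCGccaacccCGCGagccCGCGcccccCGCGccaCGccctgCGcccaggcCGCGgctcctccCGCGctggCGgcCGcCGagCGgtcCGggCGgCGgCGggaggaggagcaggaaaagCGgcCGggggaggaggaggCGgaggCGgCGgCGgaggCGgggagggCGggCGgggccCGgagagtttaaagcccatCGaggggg
Meg3 promoter, chr12:109540746-109541005, plus strand: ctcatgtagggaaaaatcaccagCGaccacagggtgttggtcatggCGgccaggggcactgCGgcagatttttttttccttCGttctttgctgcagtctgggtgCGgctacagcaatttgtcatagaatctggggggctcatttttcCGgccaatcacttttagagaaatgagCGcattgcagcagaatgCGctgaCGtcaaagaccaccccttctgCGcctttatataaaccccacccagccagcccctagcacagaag
Ndn promoter, chr7:62348027-62348286, plus strand: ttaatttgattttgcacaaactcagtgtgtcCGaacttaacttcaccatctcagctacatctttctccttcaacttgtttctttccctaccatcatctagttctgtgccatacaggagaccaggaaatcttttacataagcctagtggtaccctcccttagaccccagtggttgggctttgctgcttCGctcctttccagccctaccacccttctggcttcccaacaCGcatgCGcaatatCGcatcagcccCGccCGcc
The Igf2r window holds 29 CpGs and that of Grb10 41, against a median of 6 over 32851 promoter windows of the same length. At least as many were found in 7.8% of windows for Igf2r and in 1.4% for Grb10. Meg3 has 10 (39.1% of windows have as many) and Ndn 7 (47.6%). The palindrome TCACGTGA occurs 2 times in the Igf2r window; 0.046% of all windows hold 2 or more copies and 0.87% hold any, and the motif reads the same on both strands. TATATAA, searched on both strands, is in the Meg3 window and in 3.09% of all windows. RefSeq windows were taken for 6 of the 9 members (these 4, Gnas and Peg3). Cdkn1c and Peg13 had no entry, and Impact was left out of this step. Methylation was not measured in these libraries.

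Values are the deposited log2 CPM, where CPM is a count relative to a scaled library size, and fold changes are 5G2del over WT. Letters tell the libraries of a group apart (WT-A to WT-D, 5G2del-A to 5G2del-C), since the columns name the group but not the sample number. The scaled sizes that the values step back to ran from 34865420 to 55716549, while expected counts added up to 37930174 to 52194274 over the genes in the table. That sum exceeded the scaled size in 5G2del-C and WT-C, so the divisor was not the plain total. On this scale a floor of 3 counts equalled 0.0538 to 0.0860 CPM, a limit for counting error only, since the labels name no molecular identifiers. All members were above 0 counts in every library, with Peg3 lowest at 16 to 61 expected counts and Gnas highest at 11421 to 24152. The library WT-B differed from the rest: it had no count for 1104 genes, while the number was 83 to 492 elsewhere. Slamf1, which encodes CD150, measured -2.22 to -0.26 log2 CPM in WT and 0.40 to 0.65 in 5G2del; Kit, the stem cell factor receptor, measured 7.98 to 8.23 over all libraries. All 10 checked genes of the 5G2 band, Cux1 among them, had lower means in 5G2del, 7 of them with an unadjusted limma p under 0.05. Over all genes, 46.7% had lower means and 2.24% were lower at that p. Of the 10, 0 had an adjusted limma p under 0.05.

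Levels of different members were compared per kb of exon, with the exons of all annotated transcripts of a gene merged. Gnas, the stimulatory G protein alpha subunit that couples receptors to cAMP, was highest at 32.5 ± 4.33 CPM per kb in WT (SD, n = 4) and 32.4 ± 0.729 in 5G2del (SD, n = 3). Peg13, a noncoding RNA read from within Trappc9, came next at 13.7 ± 2.35 and 15.2 ± 2.56. These ranks did not overlap over the 7 libraries. Impact, Grb10, Cdkn1c, Igf2r and Ndn followed, with means over the 7 libraries from 4.05 for Impact to 1.88 for Ndn, and each overlapped its neighbour in that order. Meg3 (0.108) and Peg3 (0.0564) lay lowest, below the range of Ndn and overlapping each other.

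**Figure D1:**
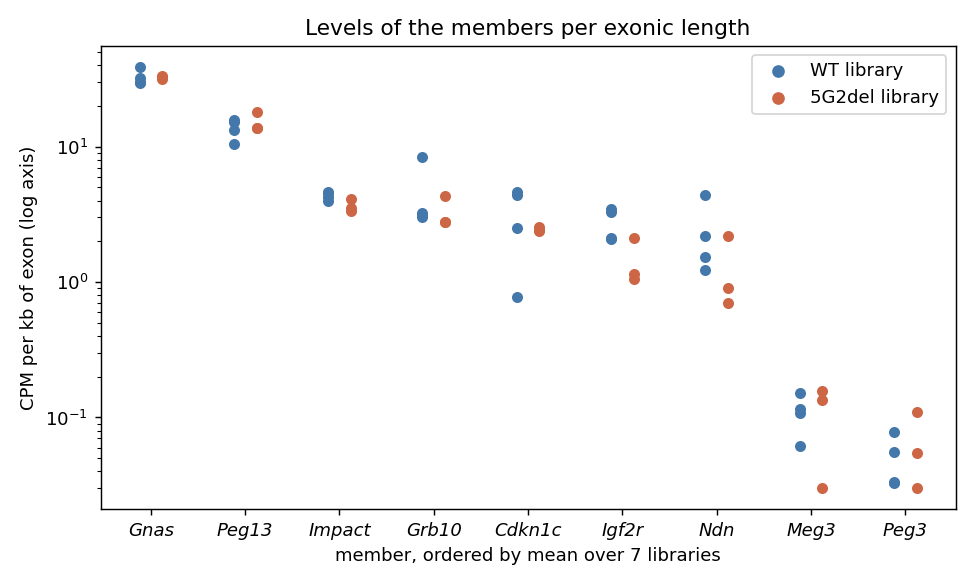
CPM per kb of merged exon (log axis) for the 9 members, ordered by their mean over 7 libraries, with 1 point per WT or 5G2del library. Gnas and Peg13 lie above the rest without overlap, and Meg3 and Peg3 lie near 0.1 and below it.

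No member changed past the threshold between the genotypes. In limma with a trend in the prior variance, 0 of the 9 members and 0 of all 16760 genes passed a Benjamini-Hochberg adjusted p of 0.05, the lowest adjusted p over all genes being 0.151. At an unadjusted p under 0.05, 1 member, Igf2r, was lower and 0 were higher, where 2.24% of all genes were lower and 1.68% higher (3.91% in either direction, 656 genes). Means were lower in 5G2del for 6 of 9 members against 46.7% of all genes, with a median log2 fold change of -0.26 against 0.03. The groups overlapped for all 9 members; they did not for 5.70% of all genes. The authors' deposited table likewise gave an adjusted p of at least 0.990 for every member. In bulk RNA, fewer cells of a type and less RNA per cell cannot be told apart.

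Igf2r encodes the cation-independent mannose 6-phosphate receptor, which carries lysosomal enzymes and takes up and degrades IGF2. It lies on chromosome 17 (12682406 to 12769664, minus strand, mm10). Igf2r measured 5.01, 4.31, 4.94 and 4.27 log2 CPM in WT-A to WT-D, and 4.30, 3.31 and 3.41 in 5G2del-A to 5G2del-C. The groups touched at a single point: 5G2del-A lay just above WT-D, and the other two 5G2del libraries lay below every WT library. The log2 fold change of Igf2r was -0.96 ± 0.30 (SE; 95% interval -1.62 to -0.30), or 0.514 of the WT level, with a limma unadjusted p of 0.00818, an adjusted p of 0.989 and an exact permutation p of 0.0571 (two-sided over 35 splits, smallest possible 0.0286). With 1 library left out the log2 fold change of Igf2r ran from -1.27 (5G2del-A) to -0.78 (5G2del-B), and its unadjusted limma p stayed under 0.05 in all 15 other settings, the highest being 0.0430. Neutrophil and monocyte genes (11 of 14 measured) also had their highest summed level in 5G2del-A and WT-A. These are the library of each group with the most Igf2r. That sum was 1656 and 557 CPM there and 167 to 252 CPM in the others. Lcn2, Ltf, Chil3, Csf1r and Ly6c2 were at 0 counts in at least 1 library. Lyz2, Csf1r and Ccr2 were higher in 5G2del-C than in 5G2del-A, and Lyz2 was lowest in WT-A among the WT libraries. The other measured genes of the list were highest in 5G2del-A and WT-A within their groups. All 11 had higher means in 5G2del, 0 of them with an unadjusted limma p under 0.05. WT-C, with the second highest Igf2r, had 211 CPM. Their part in the result was not tested.

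Igf2r has an antisense partner, Airn, a long noncoding RNA read from the paternal allele that silences the paternal Igf2r in cis. Airn was low, at 0.095, -1.73, 0.72 and 1.70 log2 CPM in WT-A to WT-D and -0.46, -0.87 and -2.66 in 5G2del. Its log2 fold change was -1.53 ± 0.95 (limma adjusted p = 0.989), and -0.86 without 5G2del-C. Airn and Igf2r share no exonic base in the annotation, but strand was not stated, so reads from unspliced Igf2r and from Airn cannot be told apart in their overlap. Slc22a3, an organic cation transporter of the same domain, measured 5.62 ± 0.27 log2 CPM in WT and 5.74 ± 0.37 in 5G2del.

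Igf2, the ligand that Igf2r clears, measured -3.10, 2.64, 0.42 and 1.06 log2 CPM in WT-A to WT-D and -0.42, -0.70 and -2.28 in 5G2del, so the WT libraries spanned the 5G2del range on both sides. The log2 fold change of Igf2 was -1.39 ± 1.20, with -2.50 without WT-A, -0.59 without WT-B and -0.81 without 5G2del-C. Igf1r, the signalling receptor for IGF1 and IGF2, was at 6.80 ± 0.07 in 5G2del and 6.95 ± 0.10 in WT, without overlap but with a log2 fold change of only -0.15 ± 0.14 (limma adjusted p = 0.989). M6pr, the smaller mannose 6-phosphate receptor, was at 7.29 ± 0.06 and 7.28 ± 0.20. Of 23 IGF and insulin signalling genes, 21 were measured; 13 were lower and 8 higher, with a median of -0.08, and Igf2r was the 1 gene with an unadjusted p under 0.05. The groups did not overlap for 2 of the 21, Igf1r and Igfbp4, beside 5.70% of all genes. Igfbp4, an IGF binding protein named after its values were seen, was at 6.69 to 6.72 log2 CPM in 5G2del and 5.56 to 6.67 in WT, with a log2 fold change of 0.495 ± 0.232 (limma unadjusted p = 0.0557, adjusted p = 0.989) that was 0.279 without WT-C.

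Grb10 is an adaptor that binds the insulin and IGF1 receptors and dampens their signal; it lies on chromosome 11 (11930508 to 12038683, minus strand). Grb10 measured 4.84, 6.25, 4.88 and 4.78 log2 CPM in WT-A to WT-D and 4.67, 5.31 and 4.66 in 5G2del-A to 5G2del-C. WT-B was far above all other libraries, 5G2del-B was next, and the remaining 5 lay within a narrow band. The log2 fold change was -0.31 ± 0.34 (95% interval -1.06 to 0.45; limma adjusted p = 0.989), and it was -0.52 without 5G2del-B, -0.20 without 5G2del-A or 5G2del-C, and 0.05 without WT-B. Ddc, the neighbour of Grb10, was at 0 counts in WT-A, WT-B and 5G2del-C.

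Ndn encodes necdin, a MAGE family protein that binds E2F1 and p53 and restrains the cell cycle of stem cells. It lies in the Snrpn domain of chromosome 7 (62346569 to 62350262, plus strand). Ndn measured 2.50, 4.01, 2.18 and 3.01 log2 CPM in WT-A to WT-D and 1.38, 3.03 and 1.75 in 5G2del-A to 5G2del-C. 5G2del-A and 5G2del-C were the lowest of all libraries, while 5G2del-B lay above 3 of the 4 WT libraries. Ndn thus had a log2 fold change of -0.88 ± 0.51 (95% interval -1.99 to 0.24; limma unadjusted p = 0.113, adjusted p = 0.989; exact permutation p = 0.286). It was -0.51 without WT-B, -0.54 without 5G2del-A and -1.36 without 5G2del-B. WT-B and 5G2del-B were the 2 highest libraries for Ndn as for Grb10, and WT-B was lowest for Peg13. Erythroid genes (13 of 14 measured) also had their highest summed level in WT-B, 260 CPM against 40.4 to 126 CPM elsewhere, with Slc4a1 and Hba-a2 among those at 0 counts in at least 1 library. All 13 had lower means in 5G2del, 0 with an unadjusted limma p under 0.05; their part in these values was not tested.

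The other genes of the Snrpn domain lay on both sides of 0. Ube3a, a ubiquitin ligase imprinted in neurons, measured 6.60, 6.40, 6.23 and 6.18 log2 CPM in WT-A to WT-D and 5.995, 6.13 and 5.71 in 5G2del-A to 5G2del-C. The groups did not overlap for Ube3a, with all 3 5G2del values lower and a log2 fold change of -0.41 ± 0.17 (limma unadjusted p = 0.0352, adjusted p = 0.989). Its unadjusted limma p was under 0.05 in 8 of 15 other settings and was lost without 5G2del-A, 5G2del-C, WT-A or WT-B (0.0553 to 0.157). Peg12, a relative of the Frat genes of Wnt signalling, lay on the other side without overlap, at 0.92 to 1.57 log2 CPM in 5G2del and -0.27 to 0.88 in WT (log2 fold change 0.87 ± 0.52; limma unadjusted p = 0.121). Snhg14, the host of the domain's small nucleolar RNAs and of the Ube3a antisense transcript, had -0.74 ± 0.53, but -0.07 without 5G2del-A and -1.19 without 5G2del-C. Mkrn3, a ring finger protein, had -1.46 ± 1.18, with -0.41 without 5G2del-C and -2.51 without 5G2del-B. Snrpn, a splicing factor subunit, was at 3.20 log2 CPM in WT-B and between -2.04 and 0.91 in the others, and Atp10a, a phospholipid flippase, at 4.05 in WT-B and 4.69 to 5.27 in the others. Of the listed necdin relatives and partners, with Ndn itself counted, 8 were measured, 5 higher and 3 lower, with a median of 0.16. E2f1, a driver of S phase that necdin binds, was the 1 with an unadjusted p under 0.05, at 0.97 ± 0.42 (0.55 without WT-C), beside 3.91% of all genes. The unadjusted limma p of E2f1 was under 0.05 in 7 of 15 other settings, and with 1 library left out only without WT-B (0.0502 to 0.141 without any of the others).

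**Figure D2:**
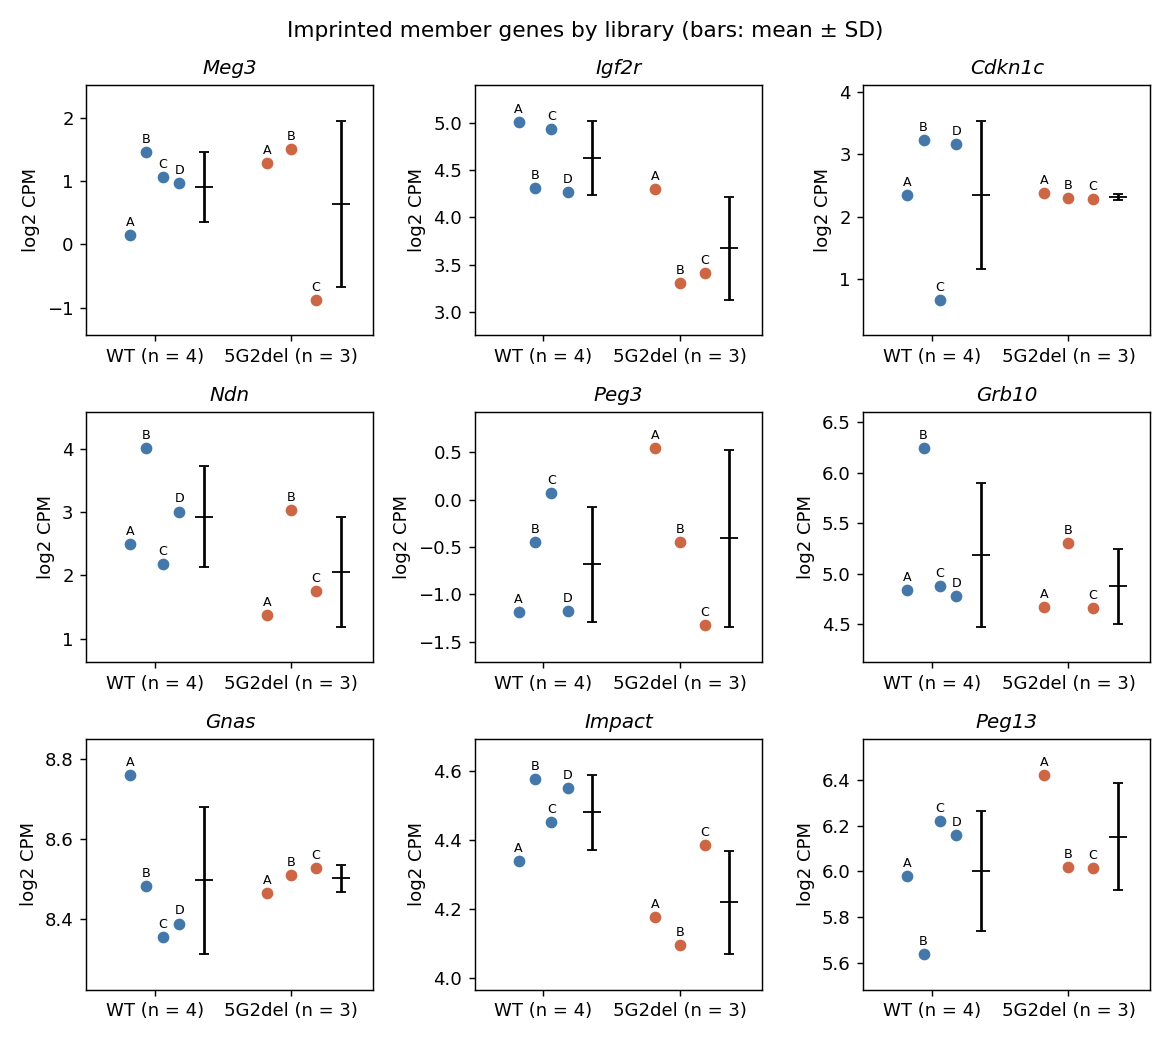
log2 CPM of the 9 members in each library, 1 panel per gene, with letters naming the WT (n = 4) and 5G2del (n = 3) libraries and bars for the mean ± SD; each panel has its own axis range. Igf2r groups meet at 5G2del-A and WT-D, and Grb10 is at 6.25 in WT-B against 4.66 to 5.31 elsewhere.

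Cdkn1c encodes p57, the cyclin-dependent kinase inhibitor most tied to stem cell quiescence, and lies on chromosome 7 (143458339 to 143461050, minus strand). Cdkn1c measured 2.34, 3.23, 0.67 and 3.16 log2 CPM in WT-A to WT-D and 2.38, 2.29 and 2.29 in 5G2del-A to 5G2del-C. The 5G2del libraries sat close together inside a wide WT range. Its log2 fold change was -0.03 ± 0.56 with a wide 95% interval, -1.26 to 1.20, and it ran from -0.59 without WT-C to 0.26 without WT-B, with 0.24 without WT-D. Of 7 CDK inhibitor genes 5 were measured, 2 higher and 3 lower with a median of -0.03, and 0 had an unadjusted p under 0.05. Cdkn1b (p27) was at 4.62 ± 0.15 in 5G2del and 4.83 ± 0.29 in WT, with a log2 fold change of -0.21 ± 0.21 that was -0.31 without WT-A, -0.12 without 5G2del-B and -0.0882 without WT-C; Cdkn1a (p21) was at 4.42 ± 0.51 and 4.38 ± 0.95.

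In the domain of Cdkn1c, Kcnq1ot1 is the paternal noncoding RNA that silences the cluster in cis. Kcnq1ot1 measured 7.74, 7.46, 7.07 and 7.02 log2 CPM in WT-A to WT-D and 6.90, 7.23 and 6.49 in 5G2del-A to 5G2del-C. Only 5G2del-B reached into the WT range, and the log2 fold change was -0.45 ± 0.22 (limma unadjusted p = 0.0684, adjusted p = 0.989), or -0.26 without 5G2del-C. Slc22a18, a transporter, had -0.62 ± 0.38. Phlda2, a growth restraint in the placenta, ran from 1.01 in WT-A to 3.91 in WT-B, with 1.61 to 2.76 in 5G2del. The tetraspanins Cd81 (7.45 ± 0.17 in 5G2del, 7.34 ± 0.32 in WT) and Tspan32 (6.08 ± 0.02 and 5.93 ± 0.28), Nap1l4 (5.79 ± 0.21 and 5.81 ± 0.28), Tssc4 (4.15 ± 0.25 and 3.89 ± 0.23) and Osbpl5 (2.59 ± 0.56 and 2.62 ± 0.71) all overlapped.

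Meg3 is a maternal noncoding RNA of the Dlk1 domain on chromosome 12 (109541001 to 109571726, plus strand), whose promoter with its TATATAA is shown above. Meg3 measured 0.15, 1.45, 1.06 and 0.96 log2 CPM in WT-A to WT-D and 1.28, 1.50 and -0.87 in 5G2del-A to 5G2del-C. The 5G2del libraries held both the highest value and the lowest. The log2 fold change of -0.27 ± 0.67 (95% interval -1.74 to 1.20; limma adjusted p = 0.989) ran from -0.70 without 5G2del-B to 0.49 without 5G2del-C, with -0.59 without 5G2del-A, -0.52 without WT-A and -0.09 without WT-B. Rian, the next maternal RNA downstream and a host of small nucleolar RNAs, was also lowest in 5G2del-C, at -3.56 log2 CPM against 0.17 and 1.75 in 5G2del-A and 5G2del-B and 0.64 to 2.72 in WT. It had -2.13 ± 1.10 (limma unadjusted p = 0.0788), with -0.62 without 5G2del-C and -3.27 without 5G2del-B. Dlk1, the paternal Notch-like ligand, was at 2.44 log2 CPM in WT-B and at or below -0.14 in the other libraries. Begain had 1.18 ± 0.87 (0.55 without WT-B).

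Gnas lies on chromosome 2 (174284320 to 174346744, plus strand) and is imprinted only in some tissues and transcripts. The annotated gene joins several promoters, so its value sums their transcripts, and antisense genes share exonic bases with it, so reads of the 2 strands cannot be told apart. Gnas measured 8.76, 8.48, 8.36 and 8.39 log2 CPM in WT-A to WT-D and 8.47, 8.51 and 8.53 in 5G2del-A to 5G2del-C. All 5G2del libraries fell inside the WT range. The log2 fold change was 0.00 ± 0.15 with a 95% interval of -0.32 to 0.33 (0.801 to 1.26 times the WT level), the narrowest of the 9 members. Of 23 Gs and cAMP pathway genes 20 were measured, 9 higher and 11 lower with a median of -0.04, and 0 had an unadjusted p under 0.05. The groups did not overlap for 3 of the 20, beside 5.70% of all genes: the kinase subunits Prkacb (-0.27 ± 0.15, and -0.18 without WT-B) and Prkar1a (-0.13 ± 0.13), and Gnal. Gnal, an alpha subunit related to that of Gnas and named after its values were seen, reached at most 0.63 log2 CPM in 5G2del and was at 0.77 to 1.50 in WT, with a log2 fold change of -0.95 ± 0.50 (limma unadjusted p = 0.0821, adjusted p = 0.989).

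Impact, a paternally expressed inhibitor of the amino acid sensor GCN2, lies on chromosome 18 (12955852 to 12992950, plus strand). Impact measured 4.34, 4.58, 4.45 and 4.55 log2 CPM in WT-A to WT-D and 4.18, 4.09 and 4.39 in 5G2del-A to 5G2del-C. Its groups met at 1 pair, 5G2del-C above WT-A. The log2 fold change of Impact was -0.26 ± 0.19 (95% interval -0.68 to 0.15; limma adjusted p = 0.989; exact permutation p = 0.0857), and it stayed between -0.34 and -0.20 with each library left out. Its residual SD of 0.127 was the smallest among the members, against a median of 0.322 over the 10358 genes with a mean above 2 log2 CPM. Among the listed GCN2 response genes, with Impact itself counted, 18 were measured, 12 higher and 6 lower with a median of 0.09. Of these, 0 had an unadjusted p under 0.05. Atf4 was at 6.59 ± 0.37 in 5G2del and 6.52 ± 0.26 in WT. Eif2s1, the translation factor that GCN2 modifies, was at 6.69 ± 0.18 and 6.75 ± 0.21.

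Peg13 lies within an intron of Trappc9 on the same strand of chromosome 15 (72805600 to 72810324, minus strand), so reads from unspliced Trappc9 cannot be told apart from it. Peg13 measured 5.98, 5.64, 6.22 and 6.16 log2 CPM in WT-A to WT-D and 6.42, 6.02 and 6.01 in 5G2del-A to 5G2del-C. WT-B was lowest and 5G2del-A highest, with the other 5 libraries between them. Its log2 fold change of 0.15 ± 0.19 (95% interval -0.26 to 0.57) was 0.02 without 5G2del-A and 0.03 without WT-B. Trappc9, a vesicle trafficking subunit, had -0.14 ± 0.21, with 0.02 without 5G2del-B, -0.23 without 5G2del-C, -0.22 without WT-C and -0.08 without WT-D. Chrac1, a chromatin remodelling subunit, measured 3.39 ± 0.12 in 5G2del and 3.21 ± 0.92 in WT.

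Peg3 encodes a paternally expressed zinc finger protein that marks stem cells in several tissues, on chromosome 7 (6703892 to 6730431, minus strand). Peg3 measured -1.19, -0.44, 0.07 and -1.17 log2 CPM in WT-A to WT-D and 0.55, -0.45 and -1.32 in 5G2del-A to 5G2del-C. The 5G2del libraries held both the highest and the lowest value. The log2 fold change of 0.28 ± 0.78 had a 95% interval from -1.44 to 1.99, and it was -0.20 without 5G2del-A, 0.73 without 5G2del-C, 0.53 without WT-C and 0.11 without WT-A or WT-D. Its neighbour Usp29 was at 0 counts in WT-A and WT-B.

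**Figure D3:**
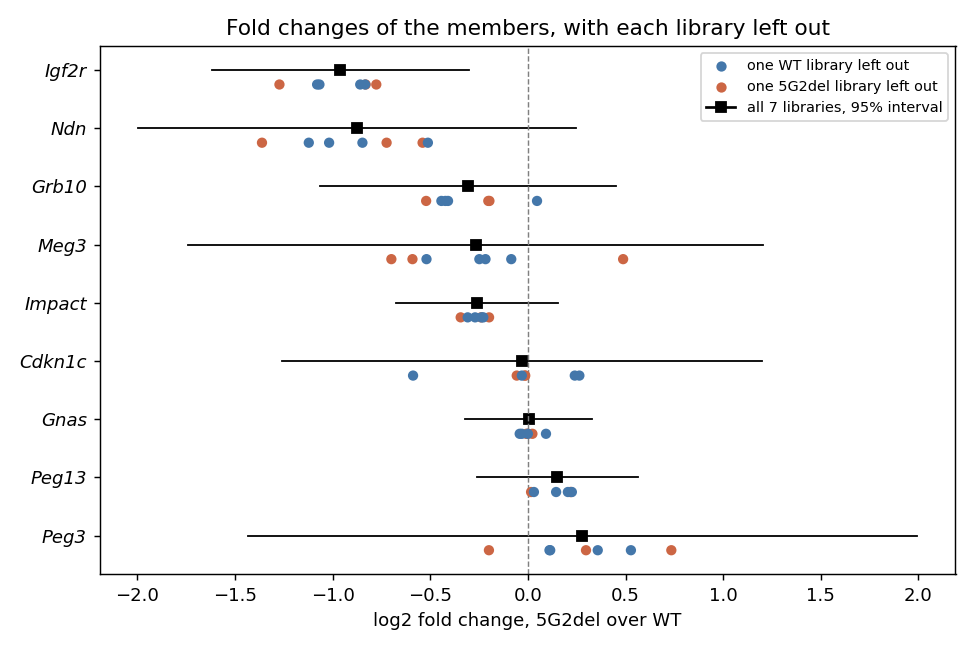
log2 fold change (5G2del over WT) of the 9 members with all 7 libraries (squares, lines for the 95% interval) and with each library left out (circles coloured by the group of that library). The Igf2r interval lies below 0, from -1.62 to -0.30, and all other intervals cross 0.

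Across the wider family, 47 of 72 listed imprinted genes were measured, 9 of them members. Means were lower in 5G2del for 25 and higher for 22, with a median of -0.03 against 0.03 for all genes. At an unadjusted p under 0.05, 2 were lower (Igf2r and Ube3a) and 0 higher, beside the 2.24% and 1.68% of all genes, and 0 passed the adjusted threshold. Groups did not overlap for 3 of the 47, Ube3a and Mcts2 lower and Peg12 higher, beside 5.70% of all genes. Of the imprinted genes outside the members' domains, Ppp1r9a (6.21 ± 0.05 in 5G2del, 6.10 ± 0.34 in WT) and H13 (6.56 ± 0.09 and 6.63 ± 0.16) were the most abundant, and Mest, a core gene of the network, was at -0.74 ± 0.32 and -1.31 ± 0.99. Among the 35 imprinted genes with a mean above 0 log2 CPM, WT-B was the highest library for 10 and the lowest for 9 (28.6% and 25.7%), near the shares over all 12847 such genes, for which it was highest in 23.9% and lowest in 22.9%. Among the 8 members above that level WT-B was highest for 4: Cdkn1c, Ndn, Grb10 and Impact.

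**Figure D4:**
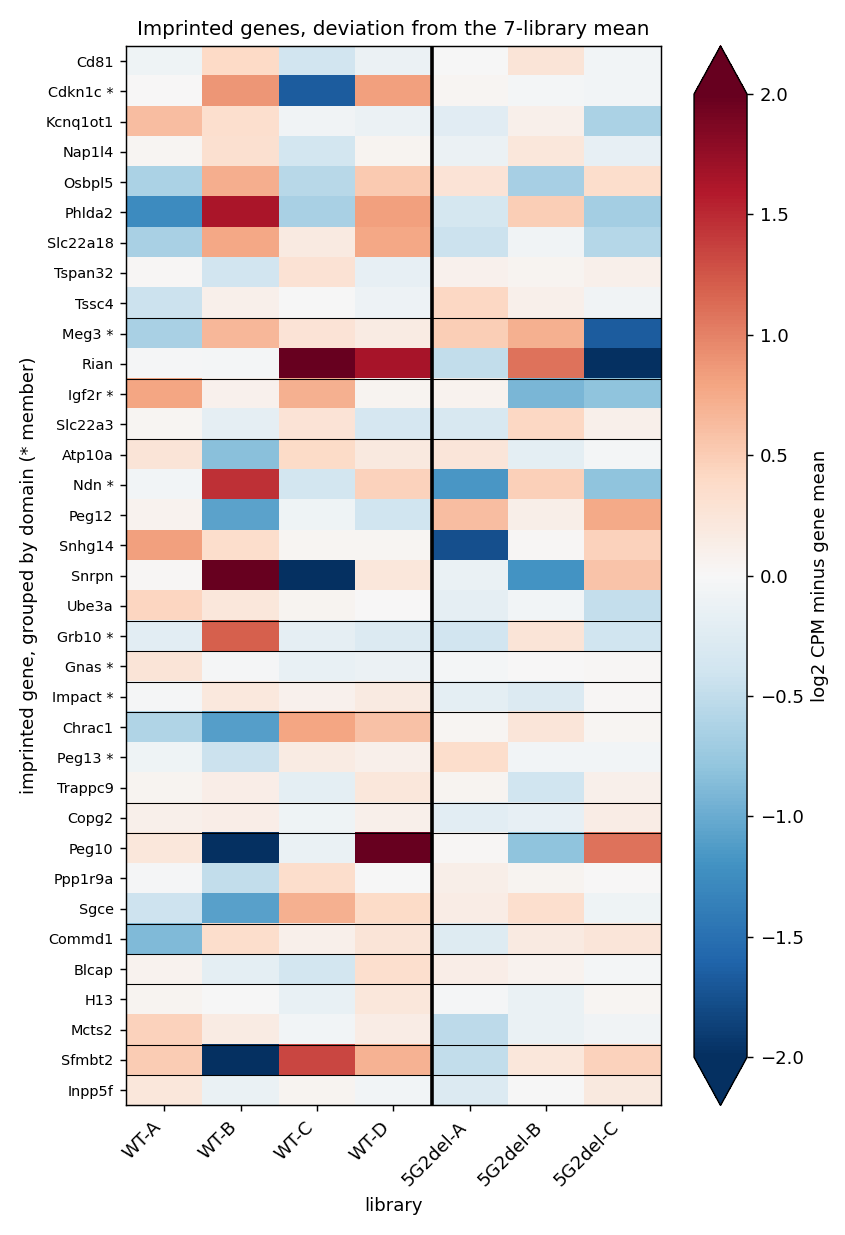
log2 CPM minus the gene's mean over the 7 libraries (colour, capped at 2 either way) for the 35 imprinted genes with a mean above 0 log2 CPM, grouped by domain with lines between domains and members starred. WT libraries are left of the thick line; WT-B is the highest library for 10 of the 35 genes and the lowest for 9.

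Genes that set up or keep imprints were measured for 20 of 22 list members, 12 higher and 8 lower, with a median of 0.01. Uhrf1, which brings DNMT1 to newly replicated DNA, averaged 5.57 ± 0.32 log2 CPM over 5G2del and 4.90 ± 0.53 over WT, a log2 fold change of 0.67 ± 0.28 (limma unadjusted p = 0.0351, adjusted p = 0.989) that was 0.42 without WT-C. Arid4b, a chromatin regulator of the Snrpn imprinting centre, was at 5.64 ± 0.26 and 6.07 ± 0.14, or -0.43 ± 0.17 (limma unadjusted p = 0.0303, adjusted p = 0.989). These were 2 of the 20 measured genes of that list, beside 3.91% of all genes, with an unadjusted p under 0.05. The call was lost for Uhrf1 without 5G2del-A, 5G2del-B or WT-C (limma unadjusted p of 0.0758 to 0.142) and for Arid4b without 5G2del-B, 5G2del-C, WT-C or WT-D (0.0682 to 0.140), and it held in 10 and 9 of 15 other settings.

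The genes whose profile was most like each member's were ranked by Pearson's r of log2 CPM over the 7 libraries among the genes with a mean above 2 log2 CPM. They are a description with no test: each gene's 7 values come from the same libraries, and the highest of 10357 values over 7 points is high by choice. For Igf2r they were Rps6ka3 (r = 0.995), a kinase downstream of ERK, and Nr3c1 (0.973), the glucocorticoid receptor. Grb10 was followed most closely by Nlk (0.988) and by Socs2 (0.982), an inhibitor of cytokine and growth hormone signalling. Ndn was most like Ncl (0.987), which encodes nucleolin, and Kansl2 (0.985). For Impact they were Myl10 (0.962), a myosin light chain, and Mecom (0.956), a stem cell transcription factor. Nearest to Cdkn1c was Cdk2ap2 (0.978), to Meg3 Tmub1 (0.994) and Zfp976 (0.973), to Gnas Tbcd (0.990) and 1700017B05Rik (0.965), and to Peg13 Rida (0.988) and Nceh1 (0.982).

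Markers of other cells were measured beside the members. Of 15 stromal and endothelial genes 8 were measured, with a summed level of 62.8 to 102 CPM in WT and 60.3 to 99.6 CPM in 5G2del. Cxcl12 was at 0 counts in at least 1 library. Col1a1, Col3a1, Pdgfra, Lepr, Dcn, Lum and Acta2 were not measured, and Pecam1 and Emcn had the highest means of the rest. The sum therefore does not single out stromal cells. Stromal and endothelial cells are known for high H19, Meg3 and Peg3. B lineage genes (5 of 9 measured) summed to 33.5 to 136 CPM in WT and 59.9 to 568 CPM in 5G2del, and T and NK genes (5 of 10) to 29.8 to 54.8 and 53.0 to 88.3 CPM. Macrophage and dendritic genes (6 of 9) summed to 5.26 to 14.4 and 3.07 to 15.2 CPM, and megakaryocyte genes (6 of 8) to 20.8 to 34.1 and 27.0 to 43.8 CPM. Mast cell and basophil genes (2 of 6) summed to 60.3 to 112 and 77.6 to 84.9 CPM. The 2 were Gata2 and Cpa3, and Mcpt8, Prss34, Fcer1a and Ms4a2 were not measured, so that sum is not specific to those cells. All 5 B lineage genes had higher means in 5G2del, 2 of them (Jchain and Igkc) with an unadjusted limma p under 0.05. Over all genes 1.68% were higher and 2.24% lower at that p, and 0 passed the adjusted threshold. Of the megakaryocyte genes 5 were higher and 1 lower, with 2 higher at that p (Treml1 and Itga2b). Of the T and NK genes 2 were higher and 3 lower, with 1 at that p in each direction (Nkg7 higher, Il2rb lower). Of the genes called, Treml1, Igkc and Il2rb were at 0 counts in at least 1 library. Macrophage and dendritic genes were 3 higher and 3 lower, mast cell and basophil genes 1 and 1, and stromal and endothelial genes 5 and 3, with 0 at that p. The part of these cells in the members' values was not tested. Stem and progenitor genes (14 of 14) summed to 2019 to 2505 CPM in WT and 2102 to 2263 CPM in 5G2del. Of these, 6 were higher and 8 lower. Cd48, higher in 5G2del (4.58 ± 0.50 log2 CPM against 3.59 ± 0.84), was the 1 with an unadjusted limma p under 0.05, beside 3.91% of all genes. Slamf1, also higher (limma unadjusted p = 0.0504), was the 1 whose groups did not overlap, beside 5.70% of all genes.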

How the data were processed

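The 7 libraries were made from total RNA with a Tecan Ovation kit and sequenced from both ends, per the labels' protocols. The submitters' processing notes list limma 3.50.3, RSEM 1.3.0 and STAR 2.7.9a, with builds mm10 and GRCh38. The authors deposited log2 CPM per library with their log2 fold change, p-value, q-value and moderated t score per gene; no source used here describes the gene filter or the scaling. Expected counts were computed back from the deposited log2 CPM with an offset of 0.5 count; 71.3% were whole within 0.01, so no count model was used.

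The deposited log2 CPM of all 16760 genes were fitted with limma 3.58.1 in R 4.3.3 (trend, no covariate, two-sided, Benjamini-Hochberg over all genes, threshold 0.05). Single values were also compared by exact permutation with SciPy 1.17.1. The fit was tested on simulated data. Positions and exon lengths came from GENCODE M21 on mm10 by gene identifier. Reads of similar genes are shared out by RSEM, and no strand setting is stated, so paralogs and antisense pairs are uncertain.

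The members and lists were chosen with earlier results of these data known. Named were all members, the other measured genes of their domains, other imprinted genes with an unadjusted p under 0.05 or a mean over 5 log2 CPM, up to 4 genes of each pathway list, and the 2 genes most like each member above 0 log2 CPM; Mest, Mcts2, Slamf1, Kit, Igfbp4 and Gnal were named beside that rule after their values were seen. Some genes that the rule or a marker list would name are not reported here. Alternatives were other scalings and offsets, a filter, no trend, array weights and leaving out each library; the authors' deposited test and scaling every library to the same total were added after seeing the data.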

Additional observations from a re-analysis of the deposited data

Results flagged for a closer look

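Within the 4 WT libraries, Grb10 in WT-B (6.25 log2 CPM) was separated from the other three by 0.931 of the whole WT range. Atp10a in WT-B (4.05 log2 CPM) was separated by 0.851 of it, on the low side. The check covered the 35 named imprinted genes, members included, which are not the same set as the 35 with a mean above 0 log2 CPM. These 2 were marked, and chance alone marks about 1 group in 20, so 2 of 35 is near that share. Both values came from the library with the most genes at 0 counts, and the cause was not tested.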

How the results depend on the processing

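No paired analysis was possible because the library columns carry no replicate number. The count of genes past the adjusted threshold, 0, became 1 without the trend and ran from 0 to 1 with a library left out (1 without 5G2del-C). The count at an unadjusted p under 0.05, 656, became 1110 with array weights and ran from 464 without 5G2del-C to 980 without WT-B. Igf2r, Ndn, Impact and Peg13 kept their direction in every setting run, as did 19 of 20 other genes with a fold change given, Trappc9 being the exception. Log2 fold changes turned sign with array weights for Cdkn1c (0.16) and Grb10 (0.0227), and for Gnas with quantile normalization (-0.11) and median centring (-0.0294). With a library left out, values ran from -0.70 to 0.49 for Meg3, -0.59 to 0.26 for Cdkn1c, -0.20 to 0.73 for Peg3, -0.52 to 0.0467 for Grb10, -0.0421 to 0.0926 for Gnas and -0.23 to 0.0176 for Trappc9. The unadjusted limma p of Ndn was under 0.05 in 1 of 15 settings, without 5G2del-B (0.0272). The cause of these shifts was not tested. Peg3 had no value under the filter on a mean above 0 log2 CPM. Scaling moved the median of all genes by less than 0.1. Peg3 and Meg3 had the fewest counts of the members, 16 to 61 and 22 to 121.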
